A study of Mus musculus with 12 samples.

Results

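CD8+ T cells that carried the adenosine receptor A2AR in anti-PD-L1-treated tumors were compared with A2AR-negative CD8+ T cells of tumors that were left without treatment. The comparison asked which genes of treated A2AR-positive cells reach, pass or stay away from the level of untreated A2AR-negative cells. It used 6 of the 12 RNA-sequencing samples of the series, 3 treated GFP+ (KT19, KT21 and KT23) and 3 non-treated GFP− (KT14, KT16 and KT18), chosen by their labels. The host mice were A2AR eGFP reporter mice, in which a bacterial artificial chromosome, an added copy of the gene region, drives eGFP from Adora2a regulatory sequence on a C57BL/6 background, so that GFP stands in for the receptor. Mice of both groups bore subcutaneous AT3ova tumors, a mouse mammary carcinoma line that expresses chicken ovalbumin, from 500000 injected cells. Anti-PD-L1, an antibody to the ligand of PD-1, was given on days 14 and 18, and tumors were taken on day 21 in both groups. CD8+ tumor-infiltrating T cells were sorted by GFP, and each sample pooled cells of 3 mice. The remaining 6 samples, non-treated GFP+ (KT13, KT15 and KT17) and treated GFP− (KT20, KT22 and KT24), entered the statistical fit and were used to place the values. The 2 groups compared differ in both GFP and treatment, and in this contrast these cannot be told apart. In bulk samples, fewer cells of a type and less RNA per cell cannot be told apart either.

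Adenosine collects in tumors, where the enzymes CD39 and CD73 make it from ATP released by stressed cells. On T cells it is sensed by A2AR, a receptor coupled to the stimulatory G protein, which raises cyclic AMP and activates protein kinase A. This pathway is known for damping T cell receptor signaling, cytokine production and killing, whereas blocking PD-L1 removes a separate brake that acts through PD-1.

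Total counts on genes were 15746937, 12881695 and 13762191 in the treated GFP+ samples and 16440398 to 19023900 in the non-treated GFP− samples. The samples held CD8+ T cell RNA, with Cd8a between 1089 and 1340 normalized CPM (counts scaled to a common library size by edgeR) and Cd4 at most 0.919 CPM in the 6 samples. Ms4a1, a B cell gene, was at 0 in all 6, and summed B cell genes were at 3.69 to 4.16 CPM in non-treated GFP− and 3.87 to 7.13 CPM in treated GFP+ samples. Summed levels of the other marker lists were, in the same order, 177 to 269 and 114 to 264 CPM for gamma delta T cells, 17.7 to 26.1 and 7.41 to 17.2 CPM for CD4 and regulatory T cells, 12.8 to 15.7 and 9.92 to 15.8 CPM for endothelium, 15.1 to 29.5 and 8.37 to 20.2 CPM for tumor epithelium, 4.35 to 42.1 and 0.444 to 12.2 CPM for fibroblasts and at most 3.37 CPM for neutrophils. The CD4 and regulatory T cell sums of the groups did not overlap, and most of them was Foxp3, at 23.5, 15.1 and 21.6 CPM in non-treated GFP− and 6.44, 15.3 and 11.8 CPM in treated GFP+ samples. Their part in the results was not tested. KT21 stood apart from its group. A comparison of its counts with those of KT19 and KT23 gave a chi-square per degree of freedom of 100.3 and 101, against 12.2 between KT19 and KT23, and 16.4% of its counts fell on pseudogenes, against 23.5% and 23.6%. In KT13, a non-treated GFP+ sample, this share was 18.1%, and its chi-square per degree of freedom with the other samples of its group was 73.6 and 79.99. The other 10 samples had 21.1% to 23.7%, the treated pair KT19 and KT23 included. Results are therefore given over all 12 samples, over 11 without KT21, and over 10 without KT13 and KT21.

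Few genes passed a test across the whole transcriptome. Over 12 samples, edgeR's quasi-likelihood F test, adjusted by Benjamini and Hochberg's method, called 5 of 14173 tested genes higher (0.0353%) and 1 lower (0.00706%) in treated GFP+ cells, at an adjusted p under 0.05. Without KT21 it called 6 higher (0.0401%) and 2 lower (0.0134%) of 14979. Without KT13 and KT21 it called 54 higher (0.366%) and 78 lower (0.529%) of 14747. Of the 78, 31 were small nuclear RNA genes, near-identical copies of which share reads, and 47 were others. The 6 genes called over 12 samples were called in both smaller sets. At an unadjusted p under 0.05 there were 844, 858 and 1361 genes. A fit of the 6 samples alone called 0, with 662 at an unadjusted p under 0.05. The 8 genes called over 12 samples or without KT21 were Adora2a, Prf1, Ccl5, Ccl3, Nrgn and Slc37a2, which were higher, and Lmna and Ifitm2, which were lower. Genes named further on for a call over the 10 samples alone were chosen after their values were seen.

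Adora2a encodes A2AR itself (chromosome 10, 75316877 to 75334784, mm10), and since cells were sorted on its reporter it checks the labels rather than being a result. It had 19.7, 24.3 and 22.6 CPM in KT14, KT16 and KT18 and 66.3, 111 and 89.1 CPM in KT19, KT21 and KT23, with no overlap. The log2 fold change was 2.0 (SE 0.197, edgeR adjusted p = 0.00111), and 1.81 without KT21 (adjusted p = 7.12e-04). Non-treated GFP+ samples had 60.2 to 67.3 CPM and treated GFP− samples 26.0 to 34.6 CPM.

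**Figure D1:**
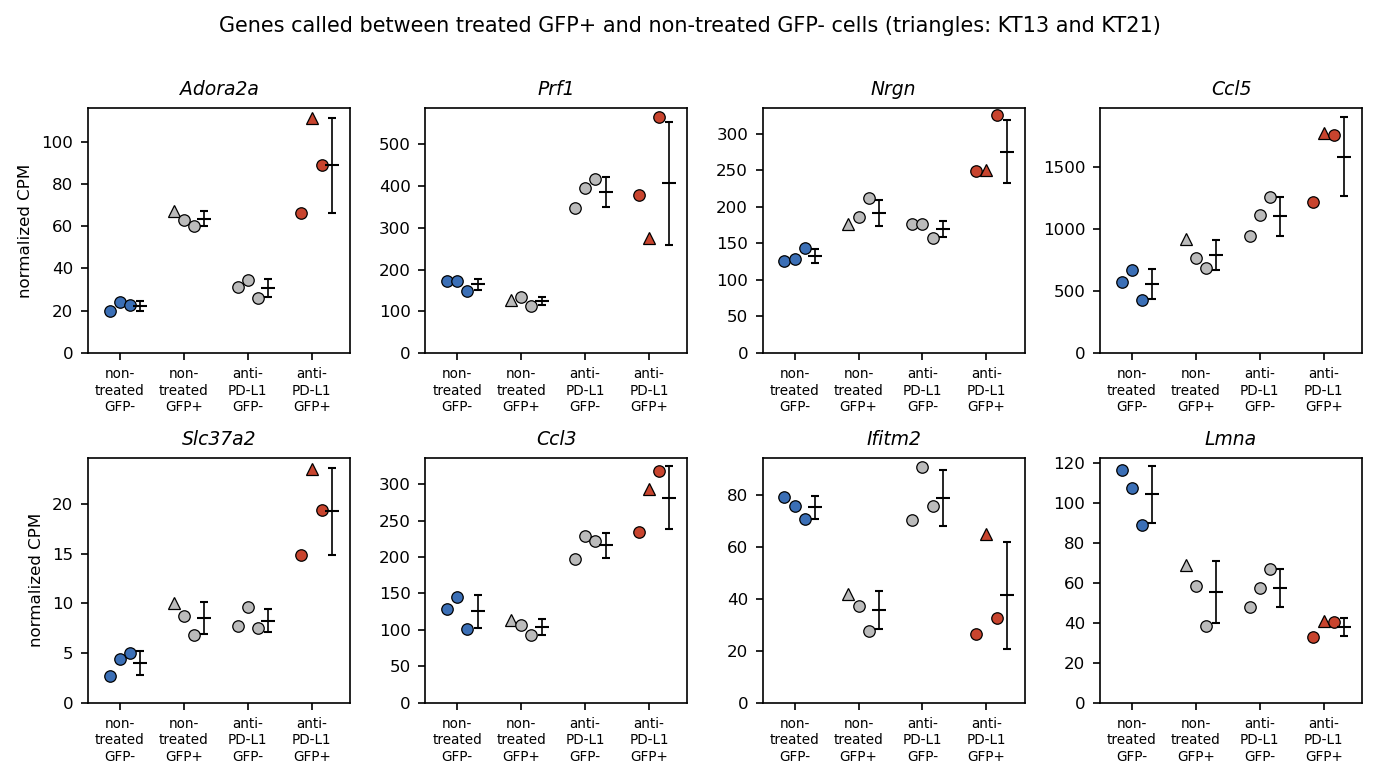
Normalized CPM (y axis, from 0) of the 8 genes called over 12 samples or without KT21, in the 4 groups (x axis, 3 samples each). Points are samples, with triangles for KT13 and KT21 and colours for the 2 groups compared, and bars give mean and SD. Prf1 and Ccl3 lie near the non-treated GFP− level in non-treated GFP+ cells and above it in both treated groups, whereas Ifitm2 is lower in both GFP+ groups.

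Perforin and 2 chemokines passed the level of untreated A2AR− cells. Prf1, the pore-forming protein of cytotoxic granules (chromosome 10, 61297833 to 61304680), had 172, 173 and 148 CPM in non-treated GFP− cells and 379, 275 and 565 CPM in treated GFP+ cells. All 3 treated values lay above, with KT21 the lowest. Prf1 had a log2 fold change of 1.31 (SE 0.215, edgeR adjusted p = 0.0575) over 12 samples and 1.52 (SE 0.17, adjusted p = 0.0016) without KT21, so the call was made without that sample. In non-treated GFP+ cells Prf1 was at 113 to 133 CPM, below the non-treated GFP− samples, and in treated GFP− cells at 347 to 417 CPM. Ccl5, a chemokine that draws T cells and myeloid cells (chromosome 11, 83525778 to 83530518), rose from 576, 668 and 426 CPM to 1217, 1782 and 1761 CPM. The difference was 1.51 on the log2 scale (SE 0.204, edgeR adjusted p = 0.0156) and 1.42 without KT21 (adjusted p = 0.0166). The means of both other groups lay between, with non-treated GFP+ samples at 689.5 to 923 CPM and treated GFP− samples at 944 to 1257 CPM. The treated GFP− and treated GFP+ samples overlapped. Ccl3, a macrophage inflammatory protein chemokine (chromosome 11, 83647844 to 83649355), had 129, 145 and 101 CPM against 234, 293 and 318 CPM. It was higher by 1.17 on the log2 scale (SE 0.174, edgeR adjusted p = 0.0236) and by 1.14 without KT21 (adjusted p = 0.0242). Non-treated GFP+ cells had 92.5 to 114 CPM of Ccl3 and treated GFP− cells 197 to 229 CPM.

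Nrgn and Slc37a2 were higher in all other groups than in untreated A2AR− cells, and highest in treated A2AR+ cells. Nrgn encodes neurogranin, a calmodulin-binding protein best known from neurons (chromosome 9, 37544492 to 37552904). It had 126, 129 and 144 CPM in non-treated GFP− and 249.7, 251 and 325 CPM in treated GFP+ samples (log2 fold change 1.05, SE 0.153, edgeR adjusted p = 0.0236), with 177 to 212 and 157 to 176 CPM in non-treated GFP+ and treated GFP− samples. Without KT21 the log2 fold change was 1.12 (edgeR adjusted p = 0.0133). Slc37a2, a sugar-phosphate transporter (chromosome 9, 37227585 to 37255738), was a low gene with 2.67, 4.41 and 4.96 CPM against 14.8, 23.5 and 19.4 CPM. It was higher by 2.26 on the log2 scale (SE 0.295, edgeR adjusted p = 0.0156), and 2.09 without KT21 (adjusted p = 0.0179). The other groups held 6.84 to 10.1 CPM (non-treated GFP+) and 7.47 to 9.62 CPM (treated GFP−).

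Lmna was the gene called lower over 12 samples. It encodes lamins A and C of the nuclear envelope (chromosome 3, 88480147 to 88509956). Non-treated GFP− samples had 116, 107 and 88.7 CPM and treated GFP+ samples 32.9, 40.6 and 40.3 CPM, so that the groups were well apart. It fell by 1.46 on the log2 scale (SE 0.215, edgeR adjusted p = 0.0236), and by 1.51 without KT21 (adjusted p = 0.0242). Non-treated GFP+ samples had 38.5 to 69.1 CPM and treated GFP− samples 48.0 to 66.7 CPM, lower than every non-treated GFP− sample. Ifitm2, an interferon-induced transmembrane protein that restricts virus entry (chromosome 7, 140954837 to 140955987), had 79.3, 75.8 and 70.7 CPM against 26.5, 65.0 and 32.6 CPM. KT21 held 65.0 CPM, about the level of the non-treated GFP− samples. Ifitm2 had a log2 fold change of −0.86 over 12 samples (edgeR adjusted p = 0.462) and fell by 1.35 without KT21 (SE 0.198, adjusted p = 0.0179). Non-treated GFP+ cells were at 27.6 to 41.9 CPM and treated GFP− cells at 70.2 to 90.8 CPM.

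The step from untreated A2AR− to treated A2AR+ cells can be taken through either of the other groups. The 4 contrasts along these paths were fitted on the same samples and share libraries with the step, so their values are given side by side. Through non-treated GFP+ cells, the log2 fold changes of GFP+ against GFP− in non-treated cells were 1.51 for Adora2a, −0.40 for Prf1, 0.51 for Ccl5, −0.27 for Ccl3, 0.53 for Nrgn, 1.08 for Slc37a2, −0.91 for Lmna and −1.08 for Ifitm2. Those of treatment in GFP+ cells were 0.49, 1.71, 1.0, 1.43, 0.52, 1.18, −0.54 and 0.21 in the same order. Through treated GFP− cells, treatment in GFP− cells gave 0.47, 1.23, 0.99, 0.79, 0.35, 1.04, −0.86 and 0.07, and GFP+ against GFP− in treated cells gave 1.54, 0.07, 0.52, 0.38, 0.70, 1.22, −0.60 and −0.93. Over 12 samples, edgeR called Prf1 and Ccl3 for treatment in GFP+ cells (both adjusted p = 0.0121), where 2 of 14173 genes were called in all (0.0141%). For GFP it called Adora2a in non-treated cells (adjusted p = 0.027, 1 gene called, 0.00706%) and in treated cells (adjusted p = 0.0226, 4 genes called, 0.0282%). For treatment in GFP− cells it called 0 genes, and the adjusted p of Prf1 was 0.0709. Without KT21, treatment was called for Prf1 in GFP+ and in GFP− cells (edgeR adjusted p = 1.6e-04 and 0.0152), for Ccl3 in GFP+ cells (0.00835) and for Ccl5 in GFP− cells (0.0448), with 34 (0.227%) and 28 (0.187%) of 14979 genes called in GFP+ and GFP− cells. GFP was then called for Adora2a and Ifitm2 in non-treated cells (0.00259 and 0.037) and in treated cells (0.0166 and 0.0179), with 6 genes called in each (0.0401%). The interaction of GFP and treatment, which asks whether the GFP and treatment contrasts add on the log2 scale, was called by edgeR for 0 of 14173 genes (295 at an unadjusted p under 0.05) and for 0 of 14979 without KT21 (510).

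Many genes lay in a narrow range around equality. A gene was counted as having reached the untreated level where the 95% interval of its log2 fold change lay within 1.5-fold in either direction. The rule looks at this contrast alone, so it also takes in genes that were level in every group. This held for 2992 of 14173 genes over 12 samples (21.1%), 3477 of 14979 without KT21 (23.2%) and 4692 of 14747 without KT13 and KT21 (31.8%). By the values alone, the 3 treated GFP+ samples lay above the 3 non-treated GFP− samples in 803 genes (5.67%) and below them in 898 (6.34%). With 2 treated samples left, without KT21, separation is easier to reach, and 1985 genes (13.3%) lay above and 1836 (12.3%) below. The median log2 fold change of all genes was −0.01 in each set. The lists of related genes used next are read against these shares, which are not matched for abundance. A gene whose interval is wider than the band cannot count as within 1.5-fold.

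**Figure D2:**
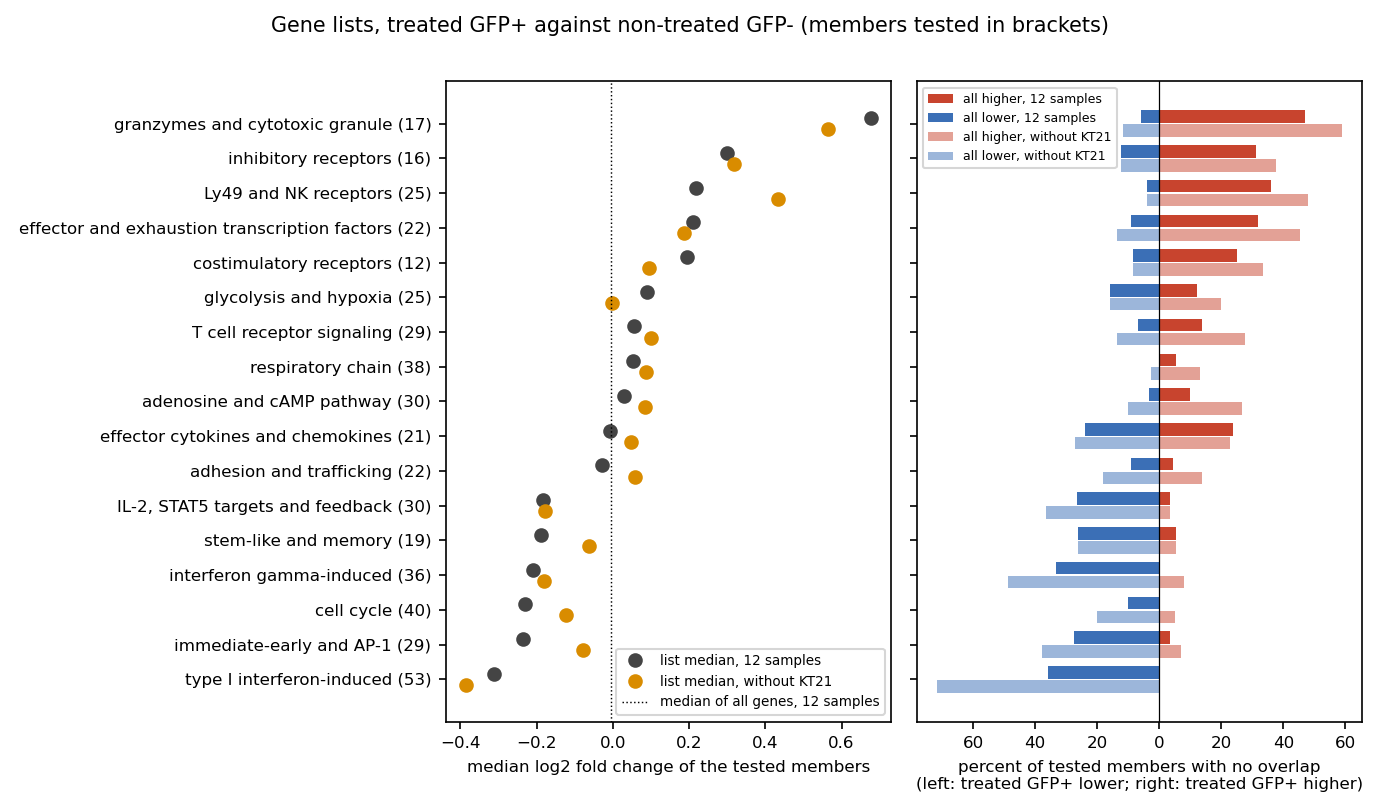
Left: median log2 fold change of the tested members of 17 gene lists, over 12 samples and without KT21, beside the median of all genes. Right: percent of the tested members in which the treated GFP+ samples all lay above (right) or all below (left) the non-treated GFP− samples. Cytotoxic granule genes stand at the top, with 8 of 17 members above, Gzmd and Gzme near the floor among them. Type I interferon-induced genes stand at the bottom, with 19 of 53 below. Over all genes tested, 5.67% lay above and 6.34% below in the 12 samples.

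Cytotoxic granule genes had the highest median of the 17 lists over 12 samples and without KT21. In 8 of 17 tested members the treated GFP+ samples all lay above and in 1 all below, where all genes gave 5.67% and 6.34%. Gzmd and Gzme, which were near the floor, are among the 8. The list median was 0.68 on the log2 scale, or 0.56 without KT21. None of the 17 was called by edgeR over 12 samples, and 1 (Prf1) was called higher without KT21 (all genes 0.0401%). Without KT13 and KT21, 4 were called higher (all genes 0.366%) and 1 lower (0.529%). Granzyme B (Gzmb), the main apoptosis-inducing granule protease, had 282, 343 and 262 CPM in non-treated GFP− cells and 405, 115 and 468 CPM in treated GFP+ cells. KT21 had the lowest value of the 6 and the remaining pair the highest. The log2 fold change of Gzmb was 0.16 over 12 samples (edgeR adjusted p = 0.973) and 0.56 without KT21 (0.478), and it was called over the 10 samples at 0.56 (0.0358).

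The granzymes did not move as 1 group. Granzyme C (Gzmc) was lower in all 3 treated samples, at 84.2, 106 and 63.5 CPM against 179, 134 and 127 CPM. Its log2 fold change was −0.79 (edgeR adjusted p = 0.44), −0.99 without KT21 (0.218), and −0.99 over the 10 samples, where it was called (0.00387). Gzma, a tryptase of the granule, had 269, 369 and 346 CPM against 170, 294 and 261 CPM, which overlapped. Treated GFP− cells had 404, 1055 and 1174 CPM of Gzma and non-treated GFP+ cells 66.6, 125 and 70.2 CPM, so the treated GFP+ samples lay between these groups, with a log2 fold change against non-treated GFP− of −0.44 (SE 0.346, edgeR adjusted p = 0.941). Gzmd and Gzme, which neighbour Gzmc in the mouse cluster, were near the floor, at 0.34 to 2.38 and 0.203 to 0.738 CPM in non-treated GFP− cells and at 5.28 to 12.4 and 2.05 to 4.37 CPM in treated GFP+ cells. Their log2 fold changes of 2.59 and 2.91 had SEs of 0.767 and 1.24 and were not called, and reads may be shared between these close paralogs. Gzmf, another of them, was called over the 10 samples (log2 fold change 1.62, edgeR adjusted p = 0.0271). Lamp1, a lysosomal membrane protein that reaches the cell surface on degranulation, and Fasl, the death ligand, reached the untreated level. Lamp1 had 90.9, 89.1 and 89.9 CPM against 89.5, 105 and 79.0 CPM, with a 95% interval of −0.29 to 0.33. Fasl had 57.0, 68.3 and 59.8 CPM against 55.3, 43.6 and 60.5 CPM, with an interval of −0.56 to 0.12. Fasl was at 38.1 to 43.6 CPM in non-treated GFP+ cells, and Lamp1 was at 78.45 to 90.4 CPM there.

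**Figure D3:**
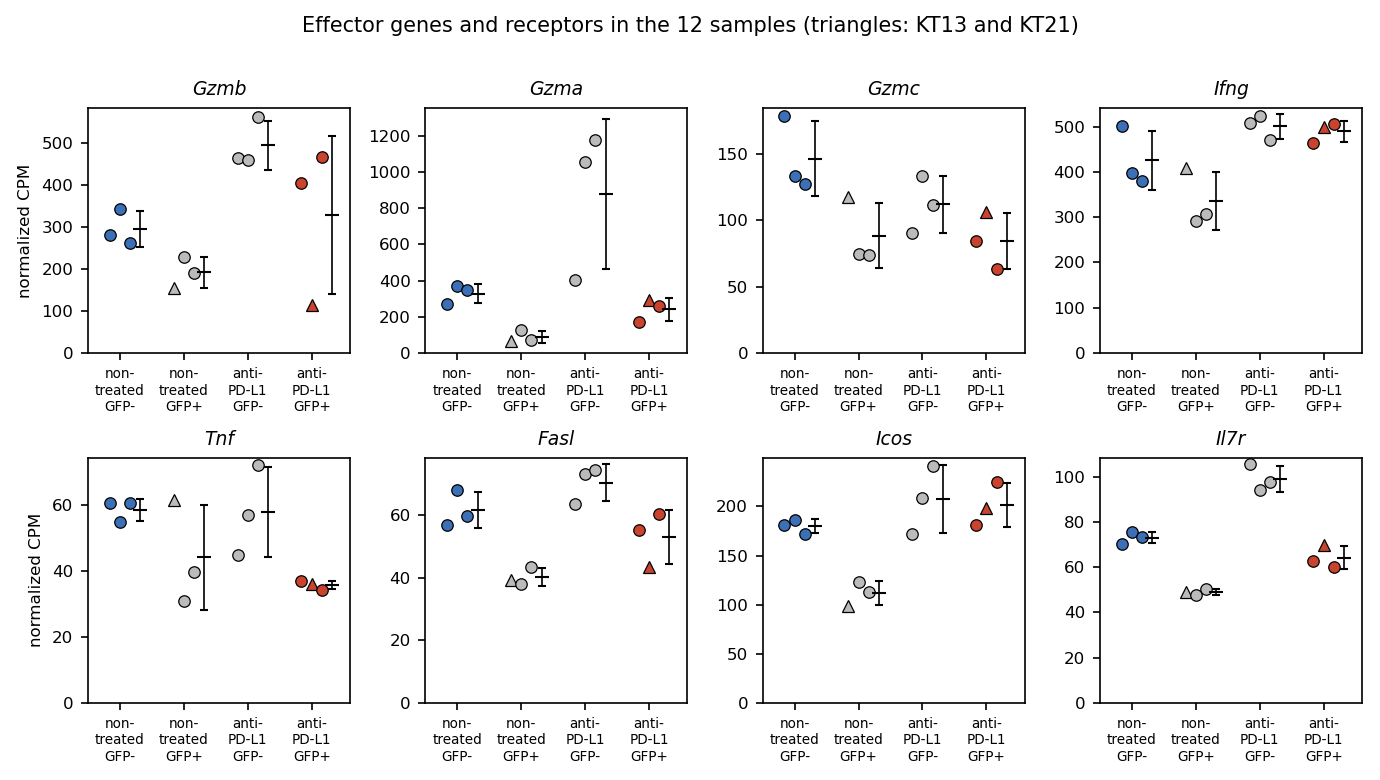
Normalized CPM (y axis, from 0) of 8 effector genes and receptors in the 4 groups (x axis, 3 samples each), with points for samples, triangles for KT13 and KT21 and bars for mean and SD. Ifng, Icos and Il7r of treated GFP+ cells lie near the non-treated GFP− level and above the non-treated GFP+ samples, Fasl lies near the non-treated GFP− level except in KT21, Tnf and Gzmc lie below, and the Gzmb group is split by KT21 at 115 CPM.

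Cytokine and chemokine genes went both ways. Of 21 tested members, 5 had treated GFP+ samples all above and 5 all below, where all genes gave 5.67% and 6.34%. The median was −0.01 on the log2 scale. Over 12 samples Ccl5 and Ccl3 were called higher (all genes 0.0353%), also without KT21 (0.0401%). Ifng, the interferon gamma gene, reached the untreated level. It had 501, 398 and 379.6 CPM in non-treated GFP− and 464, 499.7 and 507 CPM in treated GFP+ cells, with a log2 fold change of 0.20 (95% interval −0.14 to 0.55), and of 0.19 without KT21 (−0.17 to 0.55). Non-treated GFP+ cells had 409.6, 291 and 308 CPM. Tnf, the other main effector cytokine gene, stayed below, at 36.8, 35.9 and 34.3 CPM against 60.4, 54.6 and 60.5 CPM. The groups did not overlap, and Tnf did not pass the test in any set (log2 fold change −0.71, SE 0.231, edgeR adjusted p = 0.49, and 0.621 without KT21 and 0.0627 over the 10 samples). Tnf was at 30.8 to 61.5 CPM in non-treated GFP+ cells.

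Other members of this list were called over the 10 samples, where 0.366% of all genes were called higher and 0.529% lower. Ccl4, another inflammatory chemokine gene, was higher, with 185, 239 and 145 CPM against 283, 256 and 336 CPM (log2 fold change 0.71, edgeR adjusted p = 0.0218). Cxcl10, an interferon-induced chemokine that binds CXCR3, was lower, with 218, 187 and 222 CPM against 122, 74.2 and 100.4 CPM (−0.91, adjusted p = 8.42e-04). Lta, the lymphotoxin alpha gene next to Tnf, was lower too, with 32.2, 47.6 and 31.9 CPM against 21.5, 21.3 and 18.8 CPM (−0.88, adjusted p = 0.0251). In all 3 genes KT21 lay on the same side as KT19 and KT23, and over 12 samples the adjusted p was 0.439, 0.151 and 0.163.

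Type I interferon-induced genes had the lowest median of the 17 lists over 12 samples and without KT21. Type I interferons switch these genes on through the interferon-stimulated response element, a sequence motif in their promoters. Of 53 tested type I interferon-induced genes, 50 had a log2 fold change below 0. In 19 all treated GFP+ samples lay below the non-treated GFP− samples (all genes 6.34%) and in 0 above (5.67%). The median was −0.31. Without KT21, 52 were below 0, 38 lay wholly below (all genes 12.3%), and the median was −0.38. edgeR called 0 of them over 12 samples, 1 (Ifitm2) lower without KT21 (all genes 0.0134%), and 8 lower without KT13 and KT21 (0.529%). The 53 share a regulator and are not independent. The list was chosen with earlier results of these samples known, so its direction is no separate evidence.

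The promoters of 3 genes show the element in the members called lower over the 10 samples, read from RefSeq (GRCm38.p6) as the 300 bases from 250 before to 50 after the start. Capitals mark matches to the core GAAANNGAA, or to its reverse complement.
Ifit3, chr19:34583279-34583578, plus strand: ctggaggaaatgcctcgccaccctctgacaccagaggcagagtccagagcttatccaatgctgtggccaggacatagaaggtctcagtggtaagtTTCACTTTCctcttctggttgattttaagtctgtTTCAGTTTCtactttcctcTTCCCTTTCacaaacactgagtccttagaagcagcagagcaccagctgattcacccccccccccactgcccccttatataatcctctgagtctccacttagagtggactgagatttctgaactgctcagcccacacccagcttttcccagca
Ddx60, chr8:61927837-61928136, plus strand: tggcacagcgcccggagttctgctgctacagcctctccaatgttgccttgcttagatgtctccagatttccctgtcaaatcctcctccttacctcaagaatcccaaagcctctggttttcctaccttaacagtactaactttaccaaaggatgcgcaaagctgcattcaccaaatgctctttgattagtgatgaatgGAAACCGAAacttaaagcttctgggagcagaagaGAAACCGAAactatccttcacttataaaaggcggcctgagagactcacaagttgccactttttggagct
Ifitm2, chr7:140955912-140956211, minus strand: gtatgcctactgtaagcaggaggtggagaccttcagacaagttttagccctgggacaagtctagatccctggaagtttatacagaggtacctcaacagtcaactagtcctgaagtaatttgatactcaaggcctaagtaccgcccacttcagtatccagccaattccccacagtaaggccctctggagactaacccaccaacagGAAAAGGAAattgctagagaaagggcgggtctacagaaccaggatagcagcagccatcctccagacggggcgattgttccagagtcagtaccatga

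On either strand, GAAANNGAA was found in the window of 24 of the 41 type I interferon-induced genes with a RefSeq promoter (58.5%), of 14 of 27 interferon gamma-induced genes (51.9%) and of 2638 of all 27025 genes (9.76%). A second motif, TTCNNNGAA, the gamma-activated site, which may overlap the first, was found in 7 of 41 (17.1%), 10 of 27 (37%) and 2582 of 27025 genes (9.55%). A match describes the letters and is not a bound site. The core stood in the promoters of 4 of the 5 members called lower over the 10 samples that had a window, the exception being Ifitm1.

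The 8 type I members called over the 10 samples differed in where the other groups lay. Ifitm1 and Ifitm3, which lie beside Ifitm2, had non-treated GFP+ cells nearer to treated GFP+ cells and treated GFP− cells nearer to non-treated GFP− cells. Ifitm1 had 648, 964 and 866 CPM in non-treated GFP− and 371, 513 and 495 CPM in treated GFP+ cells, with 199 to 466 CPM in non-treated GFP+ and 771.5 to 1240 CPM in treated GFP− cells. The log2 fold change of Ifitm1 was −0.85 over 12 samples (edgeR adjusted p = 0.516) and −0.93 over the 10 samples (0.0293). Mx1, an antiviral GTPase, had 112, 97.8 and 96.3 CPM against 55.9, 78.0 and 57.4 CPM, and both other groups lay below the non-treated GFP− samples, at 58.9 to 72.2 and 70.6 to 90.3 CPM. Its log2 fold change was −0.68 over 12 samples (edgeR adjusted p = 0.285) and −0.85 over the 10 samples (0.00353). Oas2, which makes an activator of RNase L, had 31.9, 21.8 and 32.1 CPM against 12.7, 17.4 and 11.3 CPM, with a log2 fold change of −1.06 (edgeR adjusted p = 0.447), −1.25 without KT21 (0.327), and −1.25 over the 10 samples, where it was called (0.0135). Ifit3 was more abundant and moved less, with 414, 362 and 425 CPM against 268, 308 and 278 CPM (−0.49, adjusted p = 0.342 by edgeR over 12 samples, and −0.55, 0.0146 over the 10).

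**Figure D4:**
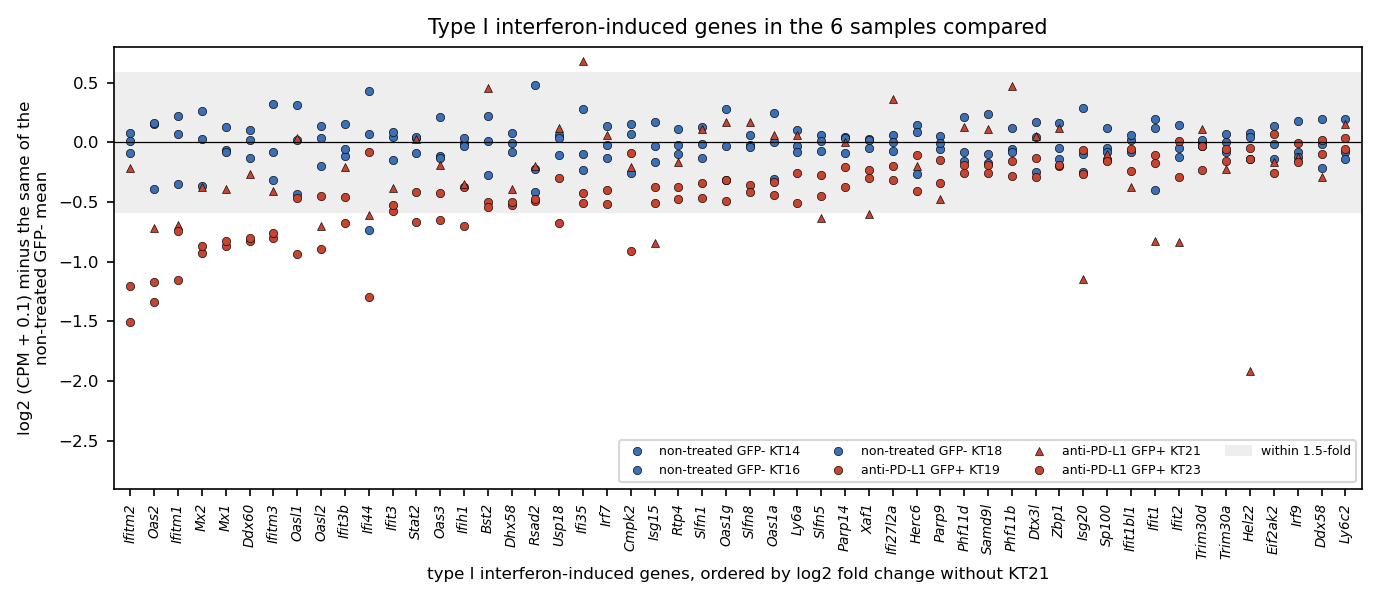
The tested type I interferon-induced genes apart from 1 not reported here (x axis, ordered by log2 fold change without KT21) in the 6 samples compared, as log2 (CPM + 0.1) minus that of the non-treated GFP− mean (y axis). KT19 and KT23 (red circles) lie below the non-treated GFP− samples (blue circles) in 38 of the 53 genes tested, KT21 (triangles) scatters more widely, and the grey band marks 1.5-fold.

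Some members of this list differed little. In 17 of 53 (32.1%) the interval lay within 1.5-fold (all genes 21.1%), and in 14 (26.4%) without KT21 (all genes 23.2%). Sp100, a nuclear body protein, had 351, 343 and 393 CPM against 328, 338 and 325.5 CPM (95% interval −0.40 to 0.14), all treated samples below. Zbp1, a sensor of Z-form nucleic acid, had 183, 148 and 158 CPM against 142, 177 and 143 CPM (−0.39 to 0.23).

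Genes induced mainly by interferon gamma were less uniform. Of 36 tested, 24 had a log2 fold change below 0, and 10 were within 1.5-fold. Wholly below lay 12 (all genes 6.34%) and wholly above 0 (5.67%). The median was −0.21, and −0.18 without KT21, where 18 lay wholly below (all genes 12.3%) and 3 wholly above (13.3%). Iigp1, an immunity-related GTPase, had 66.3, 54.0 and 75.3 CPM against 38.5, 29.0 and 23.4 CPM, with a log2 fold change of −1.10 (SE 0.222, edgeR adjusted p = 0.151), and it was called over the 10 samples (−1.07, 0.0103). Psmb8 and Psme2, parts of the immunoproteasome and its activator, reached the untreated level with intervals of −0.29 to 0.26 and −0.45 to 0.13. Sums of macrophage and dendritic cell marker genes overlapped between the groups compared. The summed level of 8 macrophage genes was 149.5 to 214 CPM in non-treated GFP− and 84.3 to 161 CPM in treated GFP+ samples, and none of the 8 was at 0 in all 6 samples. The sum of 5 dendritic cell genes was 11.97 to 19.4 and 12.6 to 37.6 CPM. Nearly all of it was Itgax, at 37.6 CPM in KT21, and the others were at most 0.609 CPM in the 6 samples. The part of these cells in the interferon values was not tested.

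Of 16 inhibitory receptor genes of activated and exhausted T cells, 5 lay wholly above (all genes 5.67%) and 2 wholly below (6.34%). Within 1.5-fold were 2, and 6 had a log2 fold change below 0, with a median of 0.30. edgeR called 0 over 12 samples and 1, which was higher, over the 10 (all genes 0.366%). That gene was Havcr2, which encodes TIM-3, at 60.3, 86.6 and 58.6 CPM against 96.3, 96.8 and 141 CPM (log2 fold change 0.70, adjusted p = 0.37 over 12 samples, and 0.79, 0.0225 over the 10 by edgeR). Treated GFP− cells had 109 to 119 CPM of Havcr2 and non-treated GFP+ cells 46.0 to 58.4 CPM. Pdcd1, which encodes PD-1, had 126, 117 and 84.7 CPM against 127, 128 and 174 CPM (0.39, SE 0.193, adjusted p = 0.847). Lag3 was high in KT21 alone of its group, with 9.36, 7.56 and 7.10 CPM against 11.2, 38.9 and 11.7 CPM, and its log2 fold change went from 1.36 to 0.52 without KT21, uncalled in both. Lair1, a collagen receptor, had 6.13, 9.95 and 7.59 CPM against 3.74, 4.47 and 3.56 CPM (−1.01, adjusted p = 0.354). Vsir and Cd96 were within 1.5-fold, with intervals of −0.36 to 0.43 and −0.42 to 0.37.

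Among costimulatory receptors, Icos was within 1.5-fold of the untreated level and above the non-treated GFP+ samples. Icos, the inducible costimulator, had 181, 186 and 172 CPM in non-treated GFP− and 181, 198 and 225 CPM in treated GFP+ cells, with an interval of −0.18 to 0.51. Non-treated GFP+ cells had 98.4, 123 and 113 CPM, below all samples of the other groups, and treated GFP− cells 172 to 242 CPM. Over 12 samples edgeR called Icos neither for GFP in non-treated cells (adjusted p = 0.316) nor for treatment in GFP+ cells (0.0946). Without KT21 the latter was called (0.049). Cd28 was level, at 84.6 to 106 and 91.0 to 109 CPM in the groups compared, with an interval of −0.24 to 0.37. Crtam, a receptor of activated CD8+ cells, had 30.0, 39.6 and 41.8 CPM against 62.8, 57.2 and 58.3 CPM (log2 fold change 0.68, edgeR adjusted p = 0.323), and was called over the 10 samples (0.71, 0.0485). Cd7 rested on KT21, with 165, 153 and 153 CPM against 218, 512 and 176 CPM. The log2 fold change of Cd7 was 0.95 over 12 samples and 0.33 without KT21.

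Of 22 transcription factor genes of effector and exhausted cells, 7 lay wholly above (all genes 5.67%) and 2 wholly below (6.34%). Within 1.5-fold were 6, with a median of 0.21 and 0 called in any of the 3 sets. Hif1a lay above by a small amount and within 1.5-fold (90.7, 80.8 and 81.6 CPM against 93.8, 100.3 and 97.9 CPM). Tox2 and Zeb2 were low genes with log2 fold changes of 1.27 (SE 0.466) and 0.94 (SE 0.375). Nr4a1, a target of T cell receptor signaling, had 284, 304 and 273 CPM against 232, 57.0 and 245 CPM. Its log2 fold change of −0.69 shrank to −0.26 without KT21, and its interval then lay within 1.5-fold.

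Of 19 tested genes of stem-like and memory cells, 1 lay wholly above (all genes 5.67%) and 5 wholly below (6.34%). Within 1.5-fold were 3, and 8 had a log2 fold change above 0. None was called over 12 samples or without KT21, with a median of −0.19, and of −0.06 without KT21. Over the 10 samples 3 were called lower (all genes 0.529%). They were Il6ra, an interleukin-6 receptor chain, with 9.93, 8.32 and 12.4 CPM against 3.74, 3.11 and 1.56 CPM (log2 fold change −1.94, edgeR adjusted p = 0.0218), Dapl1, with 56.8, 50.8 and 81.3 CPM against 35.5, 20.9 and 29.0 CPM (−0.96, 0.0124), and Klf2, a factor of tissue egress, with 459, 278 and 418 CPM against 251, 183 and 196 CPM (−0.78, 0.0485). Il6ra and Dapl1 were also low in non-treated GFP+ cells, at 1.33 to 4.58 and 17.4 to 41.6 CPM, whereas Klf2 was at 313 to 599 CPM there. Il7r, the interleukin-7 receptor, was within 1.5-fold with all treated samples below, at 70.6, 75.6 and 73.3 CPM against 62.8, 69.8 and 60.4 CPM. Its interval was −0.47 to 0.10. It was at 47.6 to 50.3 CPM in non-treated GFP+ and 94.4 to 106 CPM in treated GFP− cells. Over 12 samples edgeR called Il7r neither for GFP in non-treated cells (adjusted p = 0.316) nor for treatment in GFP+ cells (0.493). Tcf7, which encodes TCF-1, had 56.8, 66.7 and 54.9 CPM against 64.1, 16.1 and 49.8 CPM. For Tcf7 the log2 fold change was −0.46 over 12 samples, and −0.06 without KT21, when its interval was within 1.5-fold.

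Of 30 tested genes downstream of IL-2 and STAT5, edgeR called 0 over 12 samples or without KT21. In this list 21 had a log2 fold change below 0, 8 lay wholly below (all genes 6.34%) and 1 wholly above (5.67%). Within 1.5-fold were 7, and the median was −0.18 both with and without KT21. The 2 members called lower over the 10 samples (all genes 0.529%) were Cish and Socs2, which feed back on cytokine signaling. Cish had 419, 465.5 and 411 CPM against 271, 205 and 324 CPM (log2 fold change −0.54, edgeR adjusted p = 0.0485), and Socs2 had 36.1, 37.3 and 49.5 CPM against 22.7, 24.5 and 26.8 CPM (−0.73, 0.0485). In both, the values of non-treated GFP+ cells were near those of treated GFP+ cells (263 to 326 CPM and 22.7 to 25.5 CPM) and those of treated GFP− cells near the non-treated GFP− level (362 to 463.5 CPM and 41.4 to 44.8 CPM). Mcl1 and Ccnd2, a survival and a cell cycle gene, were within 1.5-fold, with intervals of −0.11 to 0.46 and −0.39 to 0.18.

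Of 25 tested receptor genes of the Ly49 and NK groups, 9 lay wholly above (all genes 5.67%) and 1 wholly below (6.34%). Below 0 were the log2 fold changes of 6, and edgeR called 0 over 12 samples or without KT21. The median was 0.22, and 0.43 without KT21, where 12 lay wholly above (all genes 13.3%). Klra7, Klra6, Klrd1 and Klre1 were called higher over the 10 samples (all genes 0.366%). Klra7 had 35.0, 53.4 and 49.4 CPM against 96.7, 74.9 and 89.5 CPM (log2 fold change 1.02, edgeR adjusted p = 0.00428, and 0.92, 0.175 over 12 samples). Klra6 had 7.38, 8.98 and 10.04 CPM against 21.6, 14.2 and 19.2 CPM (1.21, adjusted p = 0.0127 by edgeR). Reads of the Klra paralogs may be shared between them, so single members are uncertain. In non-treated GFP+ cells they were at 99.96 to 108 and 16.7 to 32.7 CPM. Klrd1 had 448, 556 and 497 CPM against 662, 154 and 770 CPM, with KT21 far below. Klrk1, the NKG2D gene, was within 1.5-fold (interval −0.55 to 0.16). The summed level of 5 NK cell genes was 142 to 158 CPM in non-treated GFP− and 188 to 262 CPM in treated GFP+ samples. Among the 5, Klrb1c and Fcer1g of this list were at 15.4 to 30.3 and 68.2 to 75.2 CPM in the former. In the latter they were at 38.0 to 44.5 and 92.7 to 154 CPM. Ncr1 was at 3.65 to 5.84 and 3.54 to 5.31 CPM, and Ncr1, Eomes and Tyrobp overlapped between the groups. The part of NK cells in these values was not tested.

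**Figure D5:**
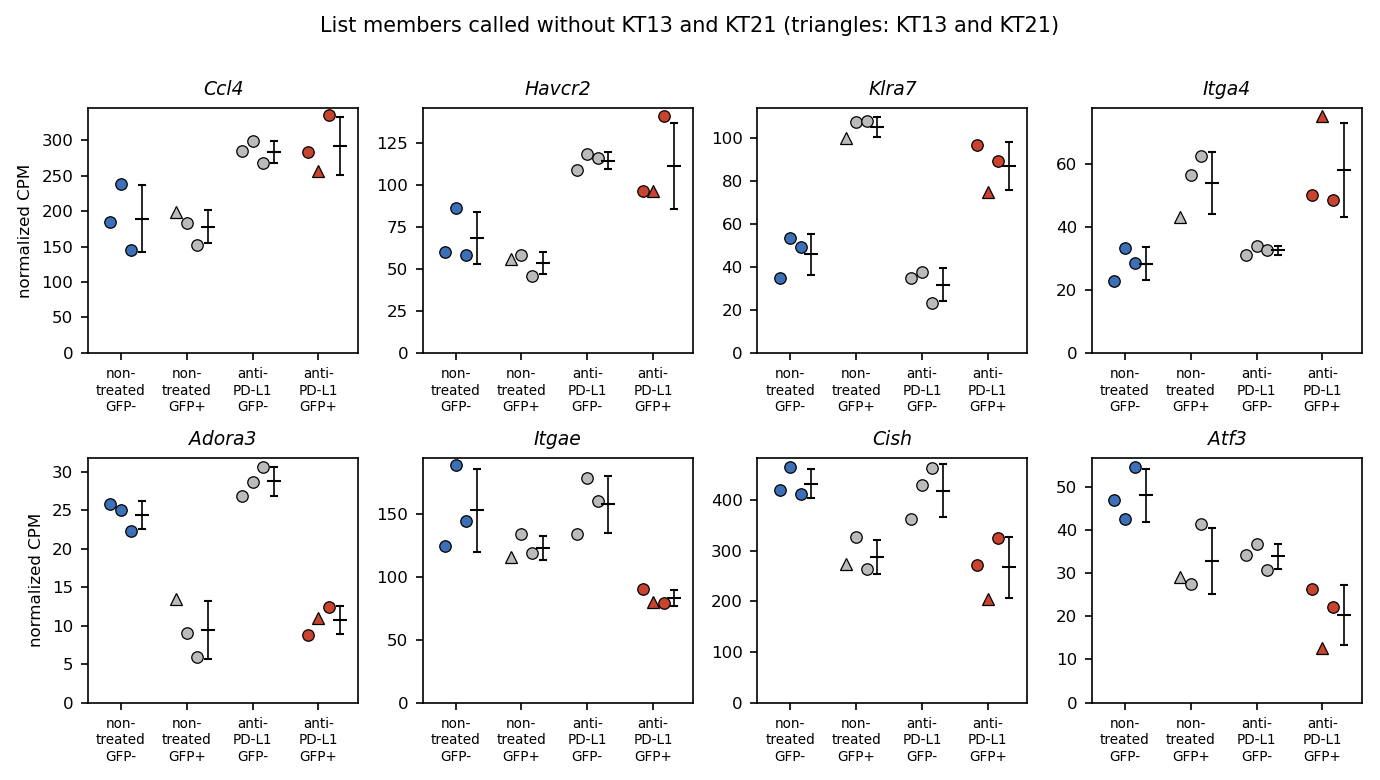
Normalized CPM (y axis, from 0) of 8 list members called without KT13 and KT21, in the 4 groups (x axis, 3 samples each), with points for samples, triangles for KT13 and KT21 and bars for mean and SD. Ccl4 and Havcr2 are higher in both treated groups, Klra7 and Itga4 in both GFP+ groups, Adora3 is lower in both GFP+ groups, and Itgae is lowest in treated GFP+ cells.

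In the adenosine and cyclic AMP pathway few genes were called. Of 30 members tested, edgeR called Adora2a over 12 samples and without KT21. Wholly above lay 3 (all genes 5.67%) and wholly below 1 (6.34%), and 13 (43.3%) were within 1.5-fold (all genes 21.1%). Adora3, the A3 receptor gene, ran opposite to Adora2a, with 25.9, 25.0 and 22.3 CPM against 8.76, 11 and 12.4 CPM. The log2 fold change of Adora3 was −1.19 (SE 0.255, edgeR adjusted p = 0.163), and −1.21 over the 10 samples, where it was called (0.00716). Non-treated GFP+ cells had 5.98 to 13.4 CPM of Adora3 and treated GFP− cells 26.9 to 30.6 CPM. The enzymes showed less. Entpd1, which encodes CD39, had 29.4, 25.1 and 27.6 CPM against 32.3, 41.2 and 39.1 CPM (0.46, adjusted p = 0.578), and Nt5e, which encodes CD73, was within 1.5-fold. Cd38, a NAD-consuming enzyme, and Rgs16, a regulator of G protein signaling, were called higher over the 10 samples (1.01, edgeR adjusted p = 0.0138, and 0.56, 0.0274), with KT21 at 15.3 and 144 CPM, inside and below the non-treated GFP− values of 11.4 to 15.8 and 289.7 to 326 CPM. Creb1, a transcription factor that protein kinase A activates, and Csk, a kinase through which it acts on Lck, had intervals of −0.16 to 0.42 and −0.27 to 0.28.

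Lists for T cell receptor signaling, respiration, division and glycolysis held 0 called genes in any set. Within 1.5-fold were 21.1% of all genes over 12 samples, 23.2% without KT21 and 31.8% over the 10 samples. Of 29 T cell receptor signaling genes, 13 (44.8%) were within 1.5-fold over 12 samples and 17 without KT21. Lck, the proximal kinase, had 412, 362 and 384 CPM against 329, 448 and 359 CPM (interval −0.34 to 0.29). Dgkz, which ends diacylglycerol signals, lay wholly above, but KT21 held 218 CPM against 87.8 and 108.5 in KT19 and KT23, and its log2 fold change of 0.81 became 0.32 without KT21. Of 38 respiratory chain genes, 23 (60.5%) were within 1.5-fold over 12 samples, 31 (81.6%) without KT21 and 37 (97.4%) over the 10 samples. No comparison with other genes of like abundance was made. Of 40 cell cycle genes, 12 (30%) were within 1.5-fold, and 32 had a log2 fold change below 0. Wholly below lay 4 (all genes 6.34%) and wholly above 0 (5.67%). The median was −0.23, and −0.12 without KT21, and 0 were called in any set. Pcna, the replication clamp, had 206, 213 and 199.6 CPM against 236, 167 and 201 CPM. Of 25 glycolysis and hypoxia genes, 10 (40%) were within 1.5-fold, with 3 wholly above (all genes 5.67%) and 4 wholly below (6.34%). Slc2a1, the GLUT1 gene, had an interval of −0.36 to 0.26.

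The median of immediate-early and AP-1 genes, which respond early to receptor signals, depended on KT21, as did their share within 1.5-fold. Of 29 tested, 25 had a log2 fold change below 0 over 12 samples and 20 without KT21, and the median went from −0.24 to −0.08. Those within 1.5-fold went from 4 (13.8%, all genes 21.1%) to 15 (51.7%, all genes 23.2%). Over 12 samples 8 lay wholly below (all genes 6.34%) and 1 wholly above (5.67%). Without KT21, 11 lay wholly below (all genes 12.3%) and 2 wholly above (13.3%). Atf3, a stress-induced factor, was lower with and without it, at 46.8, 42.4 and 54.6 CPM against 26.2, 12.6 and 22.1 CPM (log2 fold change −1.24, edgeR adjusted p = 0.151), and it was called over the 10 samples (−0.99, 0.00975). Fos was within 1.5-fold (interval −0.52 to 0.32).

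A pair of integrin genes differed in opposite directions. Itgae, which encodes CD103 and binds E-cadherin on epithelium, was lowest in treated GFP+ cells, with 125, 189 and 145 CPM against 90.2, 80.5 and 79.0 CPM. Its log2 fold change was −0.88 (SE 0.175, edgeR adjusted p = 0.151), and −0.85 over the 10 samples, where it was called (0.00766). Both other groups held 116 to 134 CPM (non-treated GFP+) and 134 to 179 CPM (treated GFP−). Itga4, the alpha 4 integrin chain, was higher, with 22.98, 33.3 and 28.7 CPM against 50.2, 75.2 and 48.6 CPM (1.03, edgeR adjusted p = 0.152, and 0.80, 0.0147 over the 10 samples). Of 22 adhesion and trafficking genes, 8 (36.4%) were within 1.5-fold (all genes 21.1%). Among them were Cxcr3 (interval −0.44 to 0.15) and Itga1 (−0.22 to 0.40).

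The genes called over the 10 samples can be placed by the groups that did not take part in the contrast. For each, the mean of non-treated GFP+ and of treated GFP− samples was set against the midpoint of the 2 groups compared. This was done on the scale of log2 (CPM + 0.1), with KT13 and KT21 left out of the means. The split has no margin, describes the means and was not tested. Of the 54 genes called higher, 22 had treated GFP− nearer to treated GFP+ and non-treated GFP+ nearer to non-treated GFP−, among them Prf1, Gzmb, Ccl3, Ccl4 and Havcr2. In 16 the reverse held, among them Adora2a, Klra7, Itga4 and Nrgn. In 7 both groups were nearer to treated GFP+, and in 9, Slc37a2 among them, neither was. Nrgn and Slc37a2 lay near the midpoint. For Nrgn, non-treated GFP+ cells lay 0.58 above non-treated GFP− and 0.53 below treated GFP+ cells on the log2 scale. For Slc37a2, treated GFP− cells lay 1.04 above the former and 1.05 below the latter. Of the 47 called lower that were no small nuclear RNA genes, 24 had non-treated GFP+ alone nearer to treated GFP+. Among them were Ifitm2, Adora3, Gzmc, Il6ra and Cish. A further 10, Atf3, Klf2 and Ifit3 included, had treated GFP− alone nearer. In 3 (Cxcl10, Lmna and Map3k3) both groups were nearer, and in 10, Itgae and Iigp1 among them, neither was. With KT13 and KT21 kept in the means, 47 of the 54 and 35 of the 47 were placed alike. Treated GFP− alone was then nearer for Cxcl10 and Oas2, neither group for Atf3 and both for Mx1. The remaining 31 called lower were small nuclear RNA genes, all 31 with treated GFP− nearer to treated GFP+, and near-identical copies share their reads. Rnu2-10 stands for them, at 349, 252 and 295 CPM in non-treated GFP− and 179, 170 and 147 CPM in treated GFP+ samples. Small nuclear RNA took 0.398% to 0.52% of counts in the former and 0.225% to 0.302% in the latter.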

How the data were processed

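The authors deposited 1 table of raw read counts per gene for 12 QuantSeq 3′ libraries, which reads transcript ends. Their methods name Cutadapt for trimming, HISAT2 for alignment to mm10 and featureCounts for counting. The submitters' processing notes give Cutadapt 1.7 and Subread 1.6.4. The Ensembl release, the strand setting and the treatment of reads with several matches are not given in the sources used here. The 52636 identifiers were matched to GENCODE vM21 (52489 matched). Every column was used. Within each group no sample was a copy of another (chi-square per degree of freedom at least 11.9), and pairs across groups were not compared in this way.

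Counts were normalized by TMM and filtered by filterByExpr in edgeR 4.0.16 (R 4.3.3). One quasi-likelihood fit over the 4 groups, without covariates, gave log2 fold changes, SEs and 95% intervals. P-values were Benjamini-Hochberg adjusted over all genes tested. Steps were tested on simulated data. The values of 1 list member are not reported here. The labels give no batch and no pairing, and the sources used here name no molecular identifiers. Each sample pooled cells of 3 mice, so p-values measure the spread between these pooled samples. Whether GFP+ and GFP− cells came from the same mice was not modelled. The comparison, the gene lists and the markers were chosen with earlier results of these data known. Named genes were a fixed set of 10, the called genes, and for each list up to 2 with the narrowest interval within 1.5-fold and up to 2 of largest change without overlap. Genes called over 10 samples and their placing by the other groups, with KT13 and KT21 left out of or kept in the means, were added after values were seen.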

Additional observations from a re-analysis of the deposited data

How the results depend on the processing

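The direction of all 8 genes called over 12 samples or without KT21 was kept in each alternative, but the calls were not. With each of the 12 samples left out in turn, Adora2a was called in 12 of 12 fits, Ccl5 in 9, Slc37a2 in 8, Nrgn in 6, Ccl3 and Lmna in 5, Prf1 in 2 and Ifitm2 in 1. The calls of Ccl5, Slc37a2, Nrgn, Ccl3 and Lmna were each lost without KT14, without KT18 and without KT23, and apart from Ccl5 also without KT16. Genes called higher ranged from 1 to 8 and genes called lower from 0 to 2 in these 12 fits, and genes within 1.5-fold from 1810 to 3477. Starting without KT21, calls in either direction ranged from 1 to 132 when 1 more sample was left out, the highest without KT13. Genes without overlap ranged from 813 to 1985 higher and from 920 to 1836 lower.

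DESeq2 called 33 higher and 46 lower over 12 samples, and 90 without KT21. With no filter beyond 1 count, 50 were higher and 60 lower, and 166 without KT21. A fit of the 2 groups alone called 0 and 0 over 6 samples (662 at an unadjusted p under 0.05), and 31 higher and 63 lower, 94 in all, over 5 samples without KT21, where 4544 genes were within 1.5-fold, 1872 lay wholly above and 1759 wholly below. Without KT13 and KT21, 54 were higher and 78 lower, 31 of the latter being small nuclear RNA genes, 132 in all. Within 1.5-fold were 4692, 1965 lay above and 1820 below. A narrower band held 64 genes and one of 2-fold 7468. The causes of these changes were not tested. Upper-quartile factors and at least 10 counts in every sample left the counts within 1.5 times. Over the 78 named genes and 19 alternatives, 1342 of 1478 values kept direction and call, 58 gained the call, 33 lost it and 45 changed sign with no call on either side. No paired analysis was possible because the groups share no replicate numbers. With 3 samples a group, 1 deviating sample can set the spread.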
